A study of Homo sapiens with 8 samples.

Results

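The cytokine and chemokine genes *CXCL8*, *CXCL1*, *CXCL2*, *CXCL3*, *IL6*, *LIF*, *IL1A*, *IL1B* and *CCL2*, together with the NF-κB inhibitor gene *NFKBIA*, were examined in A375 human melanoma cells with and without serum. These 10 genes were chosen by name as well-known targets of the transcription factor NF-κB, and all 10 were present among the 58051 genes counted in each library. A375 is an established melanoma cell line, and the 4 lines named WT1 to WT4 were wild-type lines grown from single A375 cells, so that each line is 1 clone. Each line was cultured for 12 h in DMEM with 10% fetal bovine serum (FBS) or in DMEM without FBS, and total RNA depleted of ribosomal RNA was sequenced as paired-end reads. This gave 8 libraries, 4 with serum and 4 without, with 1 library per line and condition. The deposited counts for WT4 are named differently from that line, whose identity therefore rests on the labels. The names of the deposited counts also give replicate number 2 to all libraries with serum and 1 to all without, so whatever these numbers stand for cannot be told apart from the condition. The labels do not say that libraries came from separate experiments, so p-values measure the spread between these clonal lines and libraries. In such bulk RNA, fewer cells expressing a gene and less RNA per cell cannot be told apart.

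NF-κB is a family of dimers built from the RELA, RELB, REL, NFKB1 and NFKB2 proteins. In resting cells IκBα, the product of *NFKBIA*, holds them in the cytoplasm, and signals from TNF, interleukin-1 or Toll-like receptors lead to its phosphorylation and destruction. *NFKBIA* is itself switched on by NF-κB, which closes a negative feedback loop. CXCL1, CXCL2, CXCL3 and CXCL8 (interleukin-8) form the branch of CXC chemokines that attracts neutrophils through the receptors CXCR1 and CXCR2, and CXCL1 was first known as a growth-stimulating activity secreted by melanoma cells. CCL2 attracts monocytes through CCR2, IL6 and LIF signal through the shared receptor subunit IL6ST to JAK kinases and STAT3, and IL1A and IL1B act on IL1R1 with IL1RAP.

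Without serum, the 4 neutrophil-attracting chemokine genes were lower in all 4 lines, on average by between 2.09-fold (*CXCL2*) and 3.56-fold (*CXCL1*). *CCL2* was higher in all 4 lines, by 2.45-fold on average, though in WT4 not beyond counting error. Of all tested genes, 26.6% were lower and 28.8% higher in all 4 lines. Among these chemokine genes only *CXCL8* and *CXCL3* passed edgeR's test without a line block (adjusted p under 0.05), and all passed with it. *LIF*, which together with *CXCL1* had the highest level of the set, and *NFKBIA* stayed near their level with serum, with mean differences of -0.04 and -0.09 on the log2 scale. *IL1A* changed beyond counting error only in WT4, where it was higher, *IL1B* was low, and *IL6* was close to absent. The lines differed from one another by up to 14.3-fold in *CXCL1* and 6.61-fold in *CCL2*, both lowest in WT4.

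Reads counted on genes ranged from 29759279 to 73341551 per library. Levels of 1 gene are given as CPM, its count scaled to a fixed library total with edgeR's TMM factors. Mitochondrial genes took between 1.1% and 1.58% of the counts. Reads with more than 1 alignment do not enter the counts. Relative to reads counted, ambiguous or with several alignments, they made up 22.7% and 16.8% in WT1 and WT2 with serum and between 5.73% and 10.1% in the other 6 libraries. Of 8 melanocyte lineage markers, *MITF*, the lineage's master regulator, was at 40.2 ± 3.89 CPM with serum and 33.1 ± 2.58 without (SD, n = 4), whereas *SOX10* was listed at 0 in all 8 libraries and the pigment genes *PMEL* and *MLANA* were at or below 1.01 CPM on average. *MITF* fell (edgeR adjusted p = 0.0496). *S100B*, at 18.9 ± 4.82 and 23.2 ± 8.90 CPM, and *DCT*, at 1.23 ± 1.15 and 0.64 ± 0.51 CPM, passed only with each line as a block (edgeR adjusted p = 0.0469 and 0.0251). Of 3 markers of dedifferentiated melanoma cells, *AXL* was at 590 ± 83.0 and 472 ± 121, *NGFR* at 93.2 ± 60.7 and 104 ± 76.2, and *EGFR* at 21.9 ± 13.4 and 24.7 ± 12.9 CPM. None of these 3 passed edgeR's test without a block, and *AXL*, lower in all 4 lines, passed with each line as a block (edgeR adjusted p = 5.88e-04). The summed level of 8 leukocyte markers ranged from 3.25 to 7.19 CPM with serum and from 4.29 to 9.04 CPM without, most of it *LYZ*, while the defining leukocyte gene *PTPRC* had 4 counts over all libraries. The 6 fibroblast markers summed to between 6.41 and 10.3 CPM with serum and between 7.96 and 10.4 without. Of the 4 tested, *PDGFRA* rose from 0.71 ± 0.20 to 2.39 ± 1.17 CPM (edgeR adjusted p = 0.00767), *DCN* passed only with each line as a block (edgeR adjusted p = 0.0125), and the collagen genes *COL1A2* and *COL3A1* had 20 and 22 counts in total. The endothelial markers *CDH5* and *VWF* summed to at most 1.87 CPM and were not called. The part of these markers in the results was not tested.

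Levels of different genes were compared as RPKM, which divides the scaled count by the length of the gene's merged exons. With serum, *CXCL1* was highest at 33.7 ± 21.7 RPKM, followed by *LIF* at 13.8 ± 4.09, *NFKBIA* at 4.48 ± 0.15 and *CXCL8* at 3.49 ± 1.31 RPKM (SD, n = 4 lines). *CXCL1* was above *LIF* in 3 of the 4 lines, and the ranges of the 2 genes overlapped. The next genes were *CCL2* at 1.39 ± 0.70, *IL1A* at 1.29 ± 0.79, and *CXCL2* and *CXCL3* at 0.95 ± 0.24 RPKM each. Among these 4 the ranges overlapped between every pair of neighbours. *IL1B* at 0.075 ± 0.062 and *IL6* at 0.013 ± 0.013 RPKM came last, and the range of *IL1B* lay below that of *CXCL3*. The median of the 17425 tested genes with a known length was 2.75 RPKM, so only *CXCL1*, *LIF*, *NFKBIA* and *CXCL8* were above it on average. Without serum *LIF* was highest at 13.4 ± 4.73 RPKM and *CXCL1* second at 9.44 ± 7.35 RPKM, *CCL2* rose to the fourth place at 3.44 ± 2.37, and *CXCL8* was sixth at 1.32 ± 0.53 RPKM. *LIF* and *CXCL1* then overlapped as well, with *LIF* above *CXCL1* in 2 of the 4 lines.

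**Figure D1:**
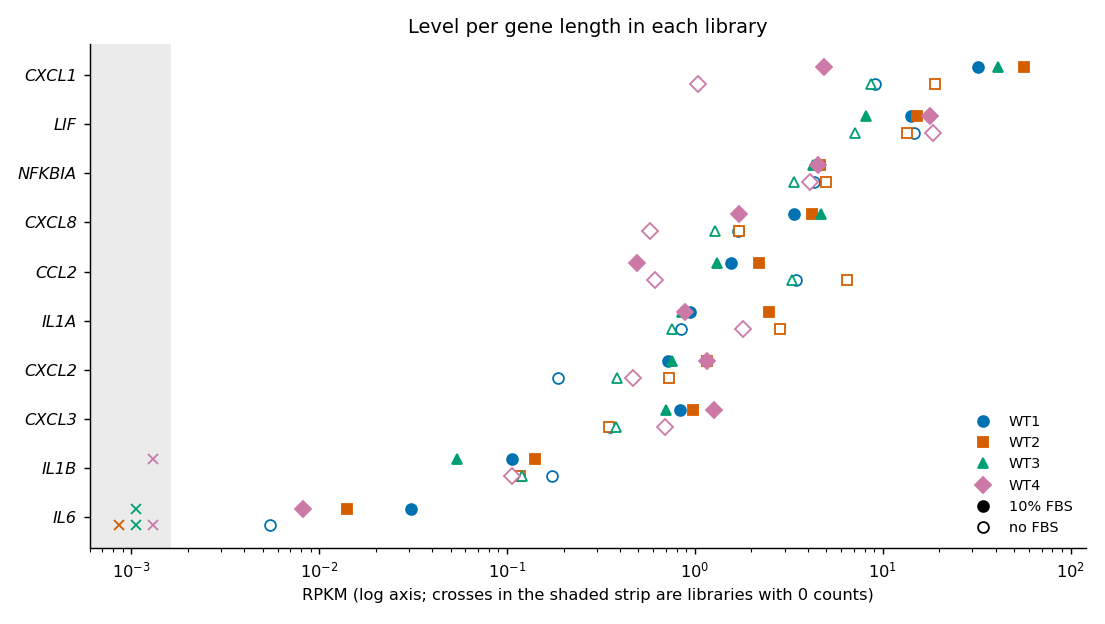
Level of each gene per length in every library, on a logarithmic RPKM axis, ordered by the mean with serum. Colours and shapes mark the 4 lines, filled symbols are libraries with 10% FBS and open symbols libraries without FBS, and crosses in the shaded strip are libraries with 0 counts. *CXCL1* spans from 1.04 to 56.5 RPKM over the 8 libraries, while *NFKBIA* stays between 3.38 and 4.97 RPKM.

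Of the 9 genes with enough counts to be tested, 2 fell without serum (*CXCL8* and *CXCL3*) and 0 rose, by edgeR's quasi-likelihood test over all 17671 tested genes with Benjamini-Hochberg adjustment and a threshold of 0.05. Over all tested genes, 14% were called lower and 11.1% higher (25.1% in either direction), and higher calls made up 44.1% of all calls (57.6% with upper-quartile scaling). At an unadjusted p under 0.05 in edgeR, 3 members were lower and 0 higher, against 19.8% and 18.6% of all tested genes. DESeq2 called 3 lower and 0 higher, against 16.8% and 13.3%, and limma's voom 2 lower and 0 higher, against 14.4% and 12.2%. The lines differ strongly in several of these genes, and the same line is present in both conditions. A fit with each line as a replicate block called 4 members lower and 1 higher, against 22.4% lower and 23.2% higher among all tested genes (45.7% together). Those 4 members were lower in all 4 lines, as were 26.6% of all tested genes, and *CCL2* was higher in all 4, as were 28.8%, so that 55.4% of all tested genes had 1 direction in every line.

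The 4 neutrophil-attracting chemokine genes lie together on chromosome 4 (GRCh38, positions from RefSeq), within a cluster of 9 protein-coding CXC chemokine genes that spans 358.6 kb. The cluster runs in the order *CXCL8*, *CXCL6*, *PF4V1*, *CXCL1*, *PF4*, *PPBP*, *CXCL5*, *CXCL3* and *CXCL2*. No read was counted on *CXCL6*, *PF4V1*, *PF4*, *PPBP* or *CXCL5* in any library, so that 4 of the 9 genes of this cluster were detected. *CXCL6* and *CXCL5* encode chemokines of the same neutrophil-attracting branch, and *PF4*, its close relative *PF4V1* and *PPBP* encode platelet chemokines. In the annotation used for lengths, other genes' exons cover 52.1% of the exon bases of *PF4*, 34.7% of those of *PPBP*, 17.3% of those of *CXCL5* and 4.61% of those of *CXCL6*, where reads may not be assigned if strand was not used.

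The 100 bases before the start of these genes are shown with those of *NFKBIA* and *IL6*, because each holds a match to the κB motif, the sequence that NF-κB dimers bind. Promoter sequences were available from RefSeq (GRCh38.p14) for 8 of the 10 genes. They were missing for *LIF* and *CCL2*, which were therefore not searched for motifs. They are written in the direction of transcription, and capitals mark matches to the κB consensus or to GGANTTTCC on either strand, which overlap each other in all of these genes but *CXCL8*.
CXCL8 (chr4:73740469-73740568, plus strand): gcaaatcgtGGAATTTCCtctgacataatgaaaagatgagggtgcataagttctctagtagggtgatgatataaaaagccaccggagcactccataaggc
CXCL1 (chr4:73869293-73869392, plus strand): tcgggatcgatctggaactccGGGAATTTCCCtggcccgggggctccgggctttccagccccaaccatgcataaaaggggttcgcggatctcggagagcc
CXCL2 (chr4:74099196-74099295, minus strand): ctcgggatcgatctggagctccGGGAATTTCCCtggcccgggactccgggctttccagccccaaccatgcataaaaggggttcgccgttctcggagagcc
CXCL3 (chr4:74038690-74038789, minus strand): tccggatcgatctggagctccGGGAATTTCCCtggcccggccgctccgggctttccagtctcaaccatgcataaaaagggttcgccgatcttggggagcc
NFKBIA (chr14:35404750-35404849, minus strand): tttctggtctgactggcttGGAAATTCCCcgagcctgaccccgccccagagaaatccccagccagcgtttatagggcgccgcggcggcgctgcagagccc
IL6 (chr7:22727100-22727199, plus strand): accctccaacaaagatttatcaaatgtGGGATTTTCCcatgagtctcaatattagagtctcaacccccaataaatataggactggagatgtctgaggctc

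*CXCL1*, *CXCL2* and *CXCL3* carried the same run GGGAATTTCCC in this window. Its inner 9 bases, GGAATTTCC, were also found in *CXCL8* and, on the opposite strand, in *NFKBIA*. In the windows from 250 bases before to 50 bases after the start, GGAATTTCC on either strand was present in 162 of 35116 promoters (0.461%), and in 5 of the 8 members with a promoter. The first base of the match lay 91 bases before the start in *CXCL8*, 78 before it in *CXCL1* and *CXCL3*, 77 in *CXCL2* and 81 in *NFKBIA*. The broader κB consensus was present in 11.3% of all promoters and in *CXCL1*, *CXCL2*, *CXCL3*, *IL6* and *NFKBIA*. Because the members were chosen as well-known NF-κB targets, their shares with these motifs cannot be tested against those of all promoters. The printed sequences of *CXCL1*, *CXCL2* and *CXCL3* are also much alike, so these genes are not separate cases. The AP-1 motif TGANTCA, present in 7.71% of promoters, was found in *CXCL8*, where its first base lay 137 bases before the start, and in *IL1A*. Among 62 tested genes outside the set with GGAATTTCC in this window, 11 rose and 8 fell without serum (17.7% and 12.9%), beside 11.7% and 17% of the 11935 tested genes with any promoter in the table. A match is a description of the sequence, and binding was not measured.

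*CXCL1* (ENSG00000163739, chr4:73869393-73871308) was at 43.7, 77.0, 56.2 and 6.62 CPM in WT1 to WT4 with serum. Without serum it was at 12.4, 25.8, 11.8 and 1.42 CPM. The level without serum, as a share of that with serum, was 0.283 (WT1), 0.336 (WT2), 0.210 (WT3) and 0.215 (WT4). Every line thus lost most of its *CXCL1*, but the groups overlapped, because WT4 with serum was below 3 of the libraries without serum. The log2 fold change was -1.83 (standard error 0.89, edgeR adjusted p = 0.176) without the block and -1.91 (edgeR adjusted p = 1.48e-08) with the replicate block. Of 12 refits without the block, each omitting a library or a whole line, only 1 passed. It left out both WT4 libraries, at -1.81 (edgeR adjusted p = 0.0272), and in the others adjusted p reached 0.400.

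*CXCL8* (ENSG00000169429, chr4:73740569-73743716) was at 8.67, 10.9, 12.2 and 4.44 CPM in WT1 to WT4 with serum and at 4.39, 4.45, 3.31 and 1.49 CPM without serum. It was lower without serum in all 4 lines, with WT4 again lowest in both conditions, and WT4 with serum lay just under WT2 without serum. It fell by 1.41 on the log2 scale (standard error 0.39, edgeR adjusted p = 0.0307), and the block gave the same size with a narrower 95% interval, from -1.72 to -1.1. The call without the block was lost in 7 of 12 refits, each omitting a library or a whole line (edgeR adjusted p up to 0.152) and without a filter on low counts (0.101).

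*CXCL2* (ENSG00000081041, chr4:74097040-74099195) was much lower, at 1.01, 1.61, 1.05 and 1.62 CPM with serum and 0.26, 1.02, 0.54 and 0.66 CPM without, with as few as 11 counts in a library. Each line was lower without serum, and only WT2 without serum reached into the range with serum. Its log2 fold change was -1.07 (standard error 0.38, edgeR adjusted p = 0.0674), and -1.14 (edgeR adjusted p = 0.00402) with the replicate block. *CXCL3* (ENSG00000163734, chr4:74036589-74038689) was at 1.86, 2.16, 1.57 and 2.82 CPM with serum and 0.78, 0.77, 0.85 and 1.55 CPM without. It was the only tested member whose libraries with and without serum did not overlap, as 27.5% of all tested genes did not. In contrast to *CXCL1* and *CXCL8*, WT4 was the line with the highest *CXCL3* in both conditions. *CXCL3* fell by 1.08 (standard error 0.29, edgeR adjusted p = 0.0244), a call lost in 7 of those 12 refits (edgeR adjusted p up to 0.122), and the replicate block gave -1.12 (edgeR adjusted p = 6.41e-04).

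*CXCL1*, *CXCL2* and *CXCL3* are similar in sequence, so reads could be shared between them. In the longest annotated transcripts, 5.33% of all 50-base windows of *CXCL1*, 10.1% of those of *CXCL2* and 3.02% of those of *CXCL3* were identical to a stretch of another gene, and 0% of the 100-base windows were. The share of reads with several alignments was higher with serum in WT1, WT2 and WT4 (10.1% against 5.73% in WT4). In WT3 it was 7.09% with serum and 7.73% without. *CXCL1*, *CXCL8*, *CXCL2* and *CXCL3* changed in WT3 by -2.25, -1.87, -0.91 and -0.85 on the log2 scale, from 1 library per condition. The part of such reads in these falls was not tested in any line.

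*CCL2* (ENSG00000108691, chr17:34255285-34257203) moved the other way. It was at 3.02, 4.25, 2.52 and 0.95 CPM in WT1 to WT4 with serum and at 6.66, 12.4, 6.34 and 1.19 CPM without. The increase was 2.2-fold in WT1, 2.93-fold in WT2 and 2.51-fold in WT3, whereas in WT4 the ratio was 1.25 with a 95% counting interval from 0.790 to 2.04. WT4 was therefore lowest in both conditions and its own change was not detectable at this depth. The log2 fold change was 1.29 (standard error 0.67, edgeR adjusted p = 0.194) without the block and 1.22 (edgeR adjusted p = 3.75e-05) with the replicate block. In the 12 refits without the block that each omitted a library or a whole line, *CCL2* passed in 2. These were without both WT4 libraries, at 1.38 (edgeR adjusted p = 0.0142), and without WT4 serum-free alone, at 1.64 (0.0391). In the others its adjusted p reached 0.415. The ratio intervals are exact, cover counting error only, and compare single libraries.

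**Figure D2:**
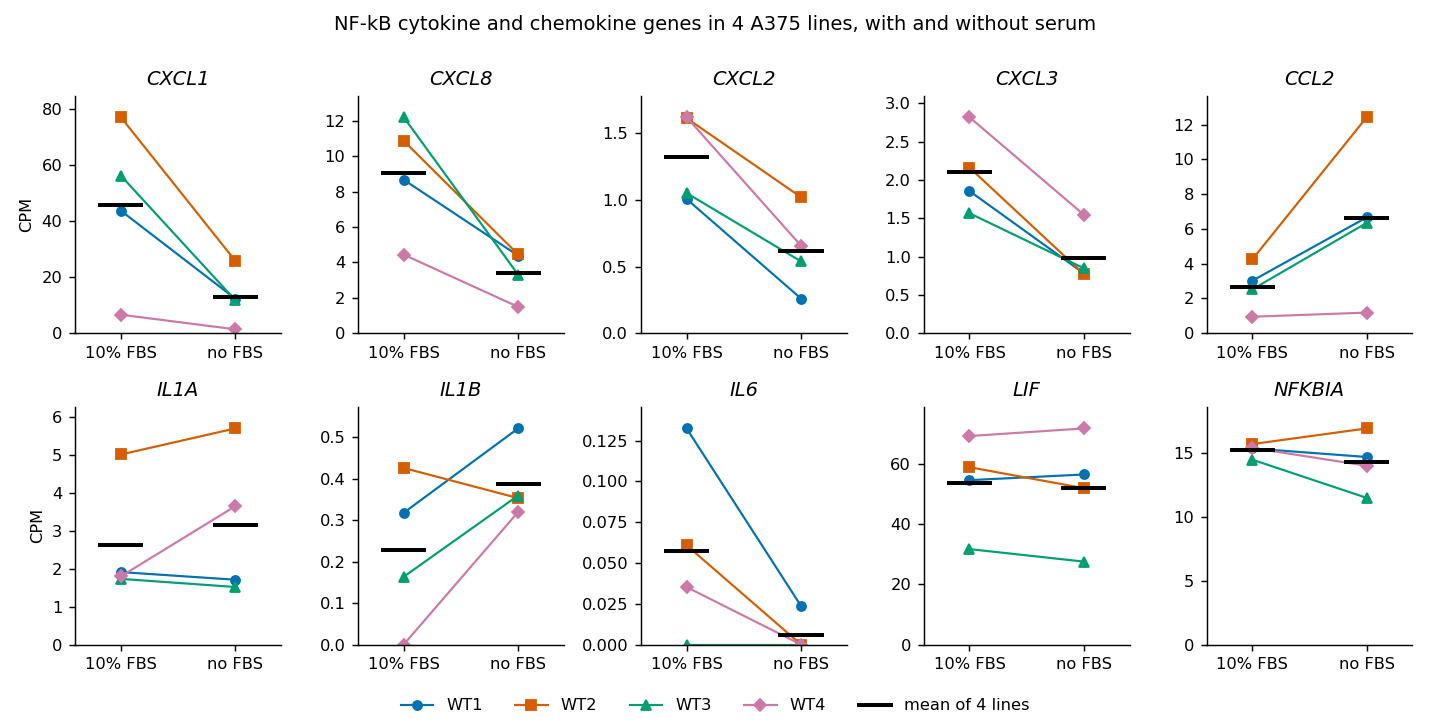
CPM of the 10 genes in each library, with 10% FBS on the left and without FBS on the right of each panel. Coloured lines join the 2 libraries of a line, black bars are means over the 4 lines, and each vertical axis starts at 0 with its own scale. *CXCL1*, *CXCL8*, *CXCL2* and *CXCL3* slope down in every line, *CCL2* slopes up, and WT4 lies lowest for *CXCL1*, *CXCL8*, *CCL2* and *IL1B*.

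*IL1A* (ENSG00000115008, chr2:112773925-112784493), which encodes the cell-associated interleukin-1α, was at 1.91, 5.01, 1.73 and 1.8 CPM in WT1 to WT4 with serum and at 1.71, 5.69, 1.52 and 3.64 CPM without. The level without serum was 2.03 times that with serum in WT4 (95% counting interval 1.49 to 2.81), while the intervals of the other 3 lines included 1. Over the 4 lines the log2 fold change was 0.26 (standard error 0.51, edgeR adjusted p = 0.748), with a 95% interval from -0.90 to 1.43, or from -0.19 to 0.64 with the replicate block. *IL1B* (ENSG00000125538, chr2:112829751-112836779), which encodes the secreted interleukin-1β, had between 0 and 28 counts per library. It was at 0.32, 0.43, 0.16 and 0 CPM with serum and at 0.52, 0.35, 0.36 and 0.32 CPM without. In WT4 it went from 0 counts to 18, which is at least 3.03-fold higher when 3 counts are taken as the most that a count of 0 allows in a library. That bound leaves out the counting error of the 18, and the exact 95% interval of the ratio begins at 2.22. The other 3 lines had ratios of 1.64, 0.829 and 2.2 with intervals that included 1. Pooled over lines, *IL1B* had 47 counts with serum and 81 without, a ratio of serum to serum-free of 0.655 (95% counting interval 0.447 to 0.950) that leaves out differences between lines. The log2 fold change over all lines was 0.67 (standard error 0.62, edgeR adjusted p = 0.465).

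*LIF* (ENSG00000128342, chr22:30240453-30246759), a cytokine of the IL6 family, was the member with the most counts. It was at 54.5, 58.8, 31.7 and 69.2 CPM in WT1 to WT4 with serum and at 56.4, 51.9, 27.5 and 71.7 CPM without. The order of the lines hardly moved between conditions, with WT4 highest and WT3 lowest in both. The ratio without to with serum was 0.882 in WT2 (95% counting interval 0.843 to 0.922) and 0.869 in WT3 (0.801 to 0.942), while the intervals of WT1 and WT4 included 1. The log2 fold change was -0.04 (edgeR adjusted p = 0.940, 95% interval -0.79 to 0.70), and -0.07 with the replicate block (edgeR adjusted p = 0.415, interval -0.21 to 0.07). Only with the block and a correction for the GC content of transcripts did it pass, at -0.23 (edgeR adjusted p = 0.00678). *LIF* overlaps the antisense genes *LIF-AS1* and *LIF-AS2* over 4.37% of its exon bases, where reads may not be assigned if strand was not used. The 5 protein-coding genes outside the set whose log2 CPM was most like that of *LIF* over the 8 libraries, of 13564 compared, were *CCNA1* (Pearson's r = 0.976), *CYB561D2* (0.965), *MAP1B* (0.963), *LAPTM5* (0.960) and *ZNF808* (0.960). These 8 points are 4 lines with 2 libraries each, so the correlations describe mainly the order of the lines.

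*IL6* (ENSG00000136244, chr7:22727200-22731998) had 5, 4, 0 and 1 counts in WT1 to WT4 with serum and 1, 0, 0 and 0 without, and did not have enough counts to be tested. Pooled over lines, 10 of 181603181 reads with serum and 1 of 205028951 without were counted on it, a ratio of 11.3 with a 95% counting interval from 1.61 to 490. That interval leaves out differences between lines, and 5 of the 10 reads came from WT1 alone. *IL6-AS1* and *STEAP1B* overlap 9.91% of its exon bases. *CLCF1* and *IL11* encode other cytokines of the IL6 family. *CLCF1* went from 15.4 ± 1.82 to 9.86 ± 2.38 CPM and *IL11* from 9.10 ± 1.21 to 6.17 ± 0.54 CPM (SD, n = 4). Both fell, by 0.64 and 0.56 on the log2 scale (edgeR adjusted p = 0.0205 and 0.0145), and were lower in all 4 lines.

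*NFKBIA* (ENSG00000100906, chr14:35401513-35404749) was at 15.3, 15.7, 14.4 and 15.4 CPM with serum and at 14.7, 16.9, 11.5 and 14 CPM without. All libraries thus lay close together, and the groups overlapped. The log2 fold change was -0.09 (standard error 0.12, edgeR adjusted p = 0.611) with a 95% interval from -0.36 to 0.17. With the replicate block the interval was -0.29 to 0.09 (edgeR adjusted p = 0.391). Only in WT3 did the counting interval of the ratio leave out 1 (0.793, 0.701 to 0.898).

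**Figure D3:**
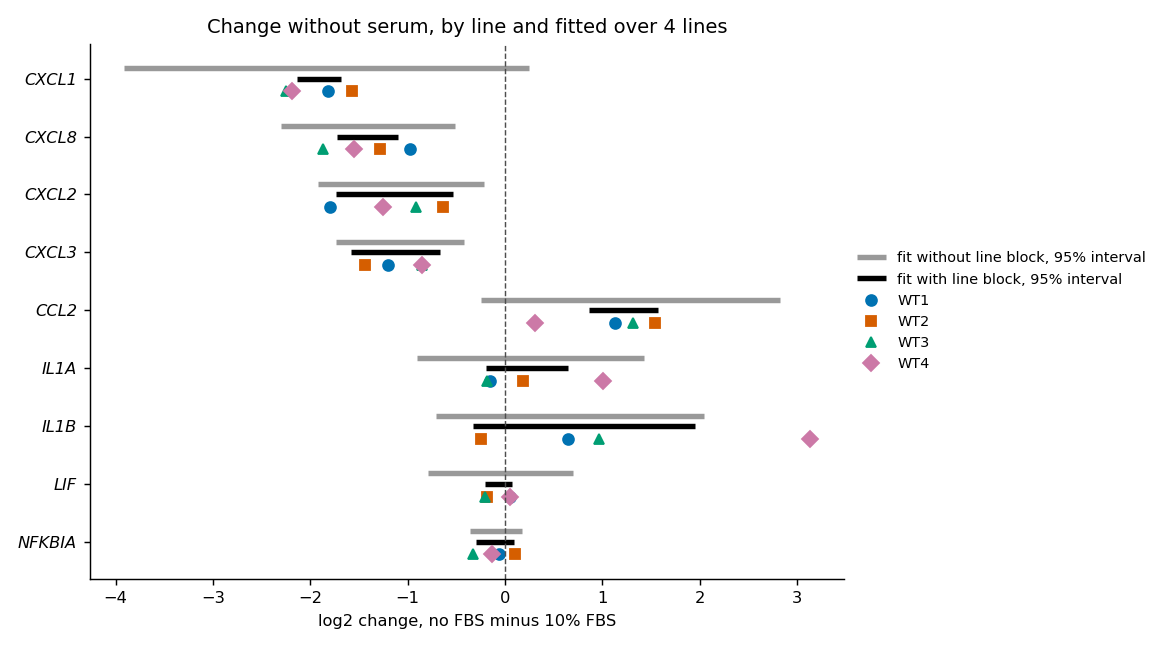
Log2 change without serum against serum for the 9 tested genes. Symbols are the 4 lines (log2 CPM with a prior count of 2, so the IL1B value of WT4 rests on a library with 0 counts), and bars are 95% intervals of the edgeR fit over the 4 lines without (grey) and with (black) the line as a block. For *CXCL1* and *CCL2* the grey bar reaches 0 and the black bar does not.

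The 4 lines differed in 5 of the 9 tested members (edgeR's quasi-likelihood test of line in the fit with line and condition, Benjamini-Hochberg adjusted p under 0.05), beside 22.9% of all tested genes. The largest difference was in *CXCL1* (edgeR adjusted p = 7.91e-09), in the order WT2, WT3, WT1, WT4. WT4 was below WT1 by -2.88 on the log2 scale and WT2 above WT3 (edgeR adjusted p = 4.18e-08 and 0.00177), whereas WT3 and WT1 did not differ beyond their spread (0.594). *CCL2* followed with the order WT2, WT1, WT3, WT4 (edgeR adjusted p = 1.02e-05), in which WT4 lay below WT3 by -2.05 (1.11e-04), the step from WT2 to WT1 missed the threshold (0.0998), and WT1 and WT3 did not differ beyond their spread. *CXCL8* differed as well (edgeR adjusted p = 6.32e-04) through WT4, which was below WT1 by -1.25 (9.79e-04). The other 3 lines were not told apart, and without the WT4 libraries the call for *CXCL8* was lost (0.741). WT4 was called different from WT1 in 21.3% of all tested genes, from WT2 in 18.5% and from WT3 in 15.8%, against 3.25% between WT2 and WT1, 4.63% between WT3 and WT1 and 7.61% between WT3 and WT2.

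*LIF* and *IL1A* had other line orders. *LIF* was highest in WT4, then WT1 and WT2, and lowest in WT3 (edgeR adjusted p = 1.85e-06 for line). WT4 was above WT1 by 0.35 (edgeR adjusted p = 0.0157), WT1 and WT2 did not differ beyond their spread (0.992), and WT3 was below WT2 by -0.90 (1.95e-05). *IL1A* was highest in WT2 (edgeR adjusted p = 5.53e-04 for line), above WT4 (0.0187), while WT4, WT1 and WT3 were not told apart. This call was lost without the WT2 libraries (edgeR adjusted p = 0.231). For *CXCL2*, *CXCL3*, *IL1B* and *NFKBIA* the test of line did not pass (edgeR adjusted p from 0.117 to 0.496), although *CXCL2* and *IL1B* passed without the WT4 serum-free library (0.0369 and 0.0476). Whether the response to serum differed between lines could not be tested, since each line has 1 library per condition.

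**Figure D4:**
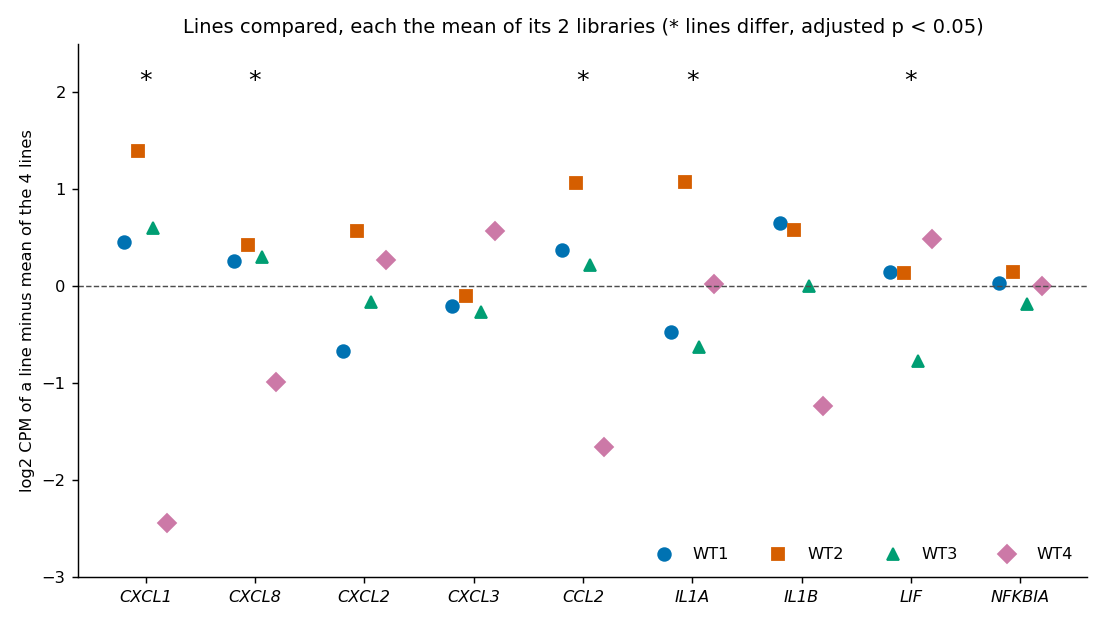
Mean log2 CPM of each line over its 2 libraries minus the mean of the 4 lines, for the 9 tested genes. Asterisks mark genes in which the lines differed at an adjusted p under 0.05. WT4 lies lowest for *CXCL1*, *CXCL8*, *CCL2* and *IL1B*, of which *IL1B* did not pass the test of line, and highest for *CXCL3* and *LIF*.

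The receptors for these ligands were unevenly present. *CXCR1* had 0 counts in all libraries, *CXCR2* had 8 and *CCR2* had 1 over all 8, and *IL1R1*, the signalling receptor of interleukin-1, had 70 counts in total. *IL1RAP*, which pairs with IL1R1, was at 52.2, 45.9, 56.9 and 43.3 CPM in WT1 to WT4 with serum and at 25.8, 25.1, 27.0 and 19.5 CPM without. The groups did not overlap, and *IL1RAP* fell by 1.03 on the log2 scale (standard error 0.12, edgeR adjusted p = 0.00112). *LIFR*, the receptor of LIF, went from 30.5 ± 8.5 to 51.8 ± 12.9 CPM and rose by 0.76 (edgeR adjusted p = 0.0387), with 5.17% of its exon bases shared with the antisense gene *LIFR-AS1*. *IL6R* went from 14.6 ± 3.25 to 21.0 ± 4.11 CPM, a log2 fold change of 0.52 that missed the threshold (edgeR adjusted p = 0.0671) and passed with the replicate block (2.46e-04). The shared subunit *IL6ST* was at 221 ± 21.6 and 207 ± 17.8 CPM (log2 fold change -0.09, edgeR adjusted p = 0.481). In all, 13 of 20 receptor genes were tested, of which 1 rose and 1 fell, beside 11.1% and 14% of all tested genes. With the replicate block 6 rose and 1 fell, beside 23.2% and 22.4%.

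Of the 5 NF-κB subunit genes, *NFKB1* fell and *NFKB2* rose by small amounts, where 14% of all tested genes fell and 11.1% rose. *NFKB1* went from 101 ± 6.08 to 85.2 ± 5.06 CPM (log2 fold change -0.25, edgeR adjusted p = 0.0286) and *NFKB2*, the subunit of the noncanonical pathway, from 68.1 ± 9.10 to 85.2 ± 6.71 CPM (0.32, edgeR adjusted p = 0.0388). *RELA* at 111 ± 11.9 and 112 ± 3.60 CPM, *RELB* at 17 ± 2.85 and 19.5 ± 1.06, and *REL* at 13.1 ± 0.68 and 12.9 ± 1.24 did not pass. *TNF*, a main inducer of the pathway, had 0 counts in all libraries. Of 13 other inhibitors, *TNIP1* rose by 0.39 (edgeR adjusted p = 0.00558), and *NKIRAS1* and *OTULIN* fell by 0.33 and 0.20 on the log2 scale (0.0322 and 0.0439). Other genes' exons cover 33.3% of the exon bases of *REL* and 28.3% of those of *NKIRAS1*. *TNFAIP3*, which encodes the feedback inhibitor A20 and is a classic NF-κB target like *NFKBIA*, was at 7.11 ± 0.81 and 6.91 ± 1.95 CPM (log2 fold change -0.04, edgeR adjusted p = 0.911).

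Among 25 tested adaptor and kinase genes, 3 rose and 5 fell, beside 11.1% and 14% of all tested genes, with a median log2 fold change of -0.00069. With the line as a block 6 rose and 8 fell, beside 23.2% and 22.4%. *CHUK*, which encodes the kinase IKKα, fell from 105 ± 11.1 to 67.9 ± 4.03 CPM (edgeR adjusted p = 0.00188), while *IKBKB*, which encodes its partner IKKβ, rose by 0.30 (0.0186). *TRADD*, the adaptor of the TNF receptor, rose from 5.39 ± 0.77 to 10.0 ± 1.75 CPM (edgeR adjusted p = 0.00485). Of 15 tested genes on the list of other NF-κB targets, 1 rose and 0 fell in edgeR's test without the block, beside 11.1% and 14% of all tested genes. With the block 5 rose and 3 fell, beside 23.2% and 22.4%. The one that rose was *TRAF1*, which encodes an NF-κB-induced adaptor, from 6.34 ± 2.45 to 21.3 ± 13.1 CPM (log2 fold change 1.76, edgeR adjusted p = 0.0229). With the block *C3*, *IER3*, *ICAM1* and *IRF1* rose as well, by 1.1, 0.61, 0.37 and 0.34 on the log2 scale (edgeR adjusted p = 9.73e-06, 5.38e-06, 0.00103 and 0.0168). Other genes' exons cover 11.7%, 38.9%, 25.4% and 22.9% of the exon bases of these genes, where reads may not be assigned if strand was not used. *PTX3*, *PDE4B* and *GADD45B* fell, by 0.94, 0.40 and 0.39 (edgeR adjusted p = 8.15e-04, 0.00259 and 0.00889). *SOD2* was not matched to an identifier and was not analysed here.

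Of 21 other chemokine genes, 11 had 0 counts in all libraries and 3 were tested. *CXCL16*, which encodes a transmembrane chemokine, rose from 3.64 ± 1.1 to 6.77 ± 1.91 CPM (edgeR adjusted p = 0.0272) and *CCL28* from 9.16 ± 1.03 to 13 ± 1.19 CPM (0.0139). *CCL20*, the third, had a log2 fold change of 0.76 (edgeR adjusted p = 0.154). Of 7 tested genes on the list of other cytokines, 2 fell and 0 rose without the block, beside 14% and 11.1% of all tested genes. With the block 4 fell and 2 rose, beside 22.4% and 23.2%. *IL24*, named after its values were seen, was at 107, 147, 203 and 24.2 CPM with serum and at 32.9, 47.1, 85.1 and 10.8 CPM without. Like *CXCL1*, *IL24* was lower without serum in every line and lowest in WT4, with a log2 fold change of -1.46 (edgeR adjusted p = 0.195, or 2.24e-08 with the replicate block). Exons of *FCMR* overlap 41.6% of its exon bases.

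Of 11 genes that control the decay or stability of cytokine mRNA, 3 fell: *ELAVL1*, which encodes the stabilizing protein HuR, from 203 ± 5.06 to 154 ± 7.96 CPM (edgeR adjusted p = 0.00238), *HNRNPD* by 0.49 on the log2 scale (0.00965) and *KHSRP* by 0.23 (0.0437). *ZFP36*, which encodes the destabilizing protein tristetraprolin, was at 14.8 ± 1.76 and 15.3 ± 2.03 CPM. Of 8 genes of the JAK and STAT3 arm, *PIAS3* rose by 0.41 and *PTPN11* fell by 0.36 (edgeR adjusted p = 0.00934 and 0.0227). *STAT3* was at 126 ± 18.9 and 165 ± 29.4 CPM (log2 fold change 0.40, edgeR adjusted p = 0.0697, or 5.80e-05 with the block). Of 4 tested genes for interleukin-1 processing, *CAPN1*, a calpain, rose by 0.57 (edgeR adjusted p = 0.00944) and *GSDMD*, the pore protein of interleukin-1 release, by 0.31 (0.0348). *CASP1*, the protease that matures interleukin-1β, had 10 counts in total. Over the 10 lists together, 12 of 104 tested genes rose and 15 fell, beside 11.1% and 14% of all tested genes. These counts were 20 and 10 with upper-quartile scaling and 32 and 26 with the block. The median log2 fold change of the 104 genes was 0.04, beside 0.03 for all tested genes.

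**Figure D5:**
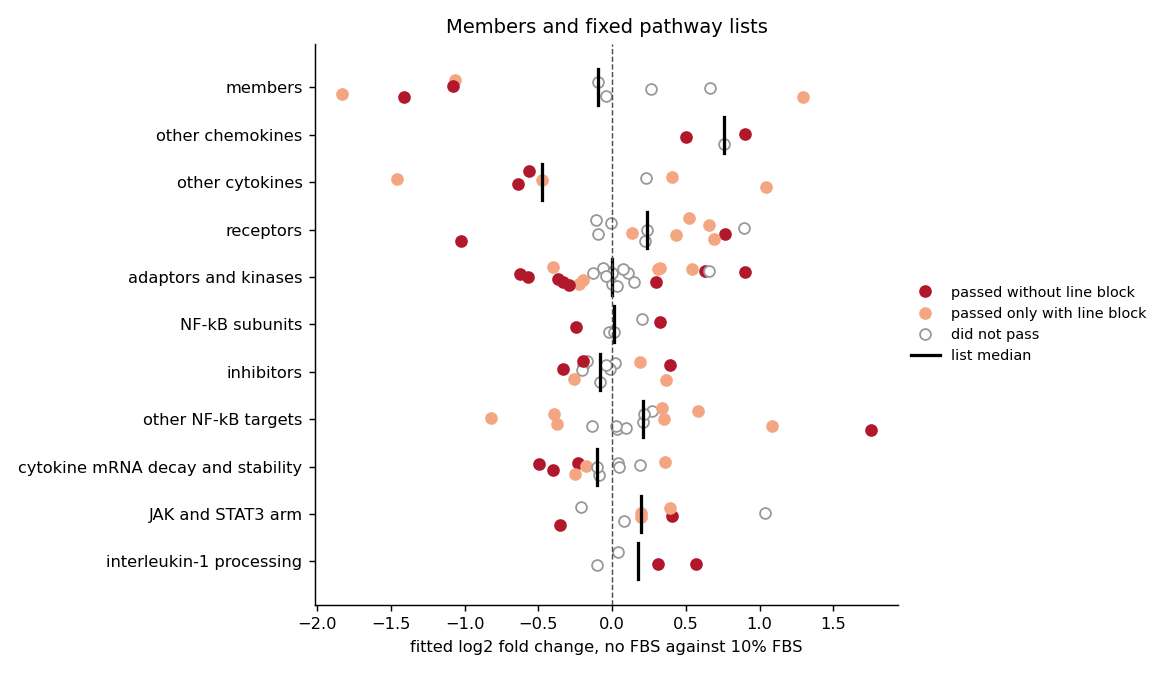
Fitted log2 fold change without serum against serum for the 9 tested members and the 104 tested genes of the 10 fixed lists, by role. Dark points passed without the line block, pale points passed only with it, open points passed in neither fit, and black ticks are list medians. The 4 neutrophil-attracting chemokine genes, at -1.83 to -1.07, lie left of most other points, near *IL24* and *IL1RAP*.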

How the data were processed

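Per the labels, the authors trimmed reads with cutadapt and deposited counts per gene made with TopHat2 2.0.11 and HTSeq on GRCh38, as whole numbers and not normalized. The study's methods describe alignment to hg19 instead, and the labels were followed. The annotation release and strand setting are not given in the sources used here. Ensembl identifiers gave symbols for 55604 of 58051 genes. Exon lengths and transcript GC content were taken from GENCODE in its GRCh37 form, another build than that of the counts.

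After filterByExpr and TMM scaling, the 4 libraries without serum were set against the 4 with serum, with no block, by glmQLFit (robust) and glmQLFTest of edgeR 4.0.16 (R 4.3.3), with Benjamini-Hochberg adjustment over all 17671 tested genes and a threshold of 0.05. Lines were compared in a fit with line and condition. Log2 CPM used a prior count of 2. The pairing comes from the cell line: deviations from the condition means correlated at 0.40 to 0.60 within lines and at most 0.13 between lines. Ratios of 2 libraries have exact 95% binomial intervals.

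Members and lists were chosen with earlier results of these data known. Named genes are the members, NF-κB subunits, receptors of members, *TNF*, up to 2 genes with the smallest p among those past the threshold in each other list, and the 5 genes most like the member with the most counts. Others (*OTULIN*, *IKBKB*, *TNFAIP3*, *KHSRP*, *STAT3*, *ZFP36*, *C3*, *IER3*, *ICAM1*, *IRF1*, *PTX3*, *PDE4B*, *GADD45B*, *CASP1*, *CCL20*, *IL24*, chromosome 4 neighbours and the cell type markers) were named after their values were seen. Alternatives were the replicate block, also with a GC correction, DESeq2 1.42.0, limma 3.58.1 voom, other scalings, filters and lengths, and leaving out each library and line.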

Additional observations from a re-analysis of the deposited data

Results flagged for a closer look

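In 8 of 86 sets of 4 values, each a member, named gene or library measure in 1 condition, Dixon's ratio put 1 line apart from the other 3. Chance gives about 4.3 such sets, or 1 in 20. Without serum these were *CXCL3* in WT4 (1.55 CPM, the other lines 0.77 to 0.85), *REL* in WT4 (14.8 CPM), *ELAVL1* in WT4 (142 CPM), and *IL6* and *CCR2* in WT1 (0.024 CPM each, from 1 count). With serum they were *IL1A* in WT2 (5.01 CPM, the other lines 1.73 to 1.91), *LIFR* in WT3 (43.2 CPM) and *GSDMD* in WT4 (54.1 CPM).

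In 4 tested members the sign of the change without serum differed between lines, and the difference between lines was not tested because each line has 1 library per condition. In each of these members, the counting intervals that left out 1 lay on only 1 side of it. The gap between the line with the largest rise and that with the largest fall was 0.25 for *LIF*, 1.19 for *IL1A*, 3.38 for *IL1B*, where 1 library had 0 counts, and 0.44 for *NFKBIA*, all as log2 changes.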

How the results depend on the processing

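Without the block, 2 members were lower and 0 higher, 4434 genes were called, and 12 pathway genes were higher and 15 lower. With the line as a replicate block these counts were 4, 1, 8067, 32 and 26. Adding a GC correction to it gave 5, 1, 8153, 29 and 30. The block brought *CXCL1*, *CXCL2* and *CCL2* past the threshold, and *LIF* only with the GC correction. It moved no other member across it. Upper-quartile scaling gave 20 pathway genes higher and 10 lower, which turned their balance. The balance of all calls turned with it, from 44.1% to 57.6% higher. No filter on low counts left 1 member lower. Leaving out 1 library or line, without the block, gave 0 to 3 members lower, 0 to 1 higher, 1589 to 6128 genes called, 4 to 16 pathway genes higher and 4 to 20 lower. The fit without WT1 had the fewest calls. With the block and 1 line left out, an alternative chosen after seeing the data, 4 members were lower and 1 higher in each fit, with 6185 to 8938 genes called and 24 to 37 pathway genes higher (25 without WT3) and 21 to 30 lower. Between 4 and 7 members differed between lines when a library or line was left out. The sign of *LIF* turned with upper-quartile scaling (0.019) and in 4 of 12 leave-out fits (range of all 12 -0.24 to 0.16), and that of *IL1A* without WT2 serum-free (range -0.20 to 0.80) and without WT4 under the block (-0.012). None of the turned values passed the threshold. The causes of these changes were not tested. *IL6*, *CXCR1*, *CXCR2*, *CCR2* and *IL1R1* had too few counts to be tested.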
